A study of Mus musculus with 8 samples.

Results

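NF-κB is a family of dimeric transcription factors that sits at the center of the inflammatory response of macrophages. In resting cells the dimers are held in the cytoplasm by inhibitors of the IκB family, and a signal from a receptor such as a TNF receptor leads to the loss of the inhibitor and to the entry of the dimer into the nucleus. Several of the genes it then switches on encode its own brakes, so that the transcripts of these inhibitors are known as sensitive markers of recent signaling. The 10 genes described here were chosen by name, with earlier results of these data known. They were 4 subunits (Nfkb1, Nfkb2, Rel and Relb), 3 members of the IκB family (Nfkbia, Nfkbiz and Bcl3), 2 feedback inhibitors that act on signaling proteins or on mRNA (Tnfaip3 and Zfp36), and the cytokine Tnf, which is both an inducer and a target of NF-κB. All 10 were found among the 21051 genes listed, and all 10 passed the filter on low counts with 12412 genes in all.

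Bulk RNA-Seq was done on tumor-associated macrophages (TAMs) sorted as CD45+F4/80+ cells from s.c. B16 melanomas on day 14 after injection. B16 is a pigmented melanoma line of C57BL/6 origin. The 4 control mice were WT (TAM-WT) and the 4 others Colec11-/- (TAM-KO), with 1 library per mouse. All were of the C57BL/6 strain and all carried tumors, and the controls were littermates; the study's methods give male mice as the default. Colec11 encodes collectin-11, a secreted pattern recognition molecule, and the mice lack it in every cell and not in macrophages alone. The comparison asks how the RNA of TAMs differs when the host lacks this protein. Adgre1, which encodes F4/80, had from 182 to 239 FPKM (fragments per kilobase of transcript, scaled to the mapped reads of the library) in the 7 libraries with a value for it. Reads on genes numbered from 16225362 to 17280267 in these 7 libraries. Colec11 had at most 4 counts in any library, too few to check the genotype. TAM-WT replicate 1 stood nearer to the TAM-KO libraries than to the other TAM-WT libraries in several of the genes below; it was grouped by its label, which could not be checked here, and results are given with and without it. From the deposited table of TAM-KO replicate 1 a stretch of 5311 genes is missing, among them Nfkb1, Nfkb2, Nfkbia and Bcl3. For Nfkbia and Bcl3 its value was taken from the deposited table of the whole series, which is labeled as differentially expressed genes. Nfkb1 and Nfkb2 are not in it and have 3 TAM-KO libraries. Below, the values of a group stand in the order of the replicate numbers.

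The promoters of several of these genes carry binding sites for NF-κB itself, which is the sequence basis of the feedback. RefSeq windows of GRCm38.p6, from 250 bases before to 50 bases after each transcript start, were searched for the κB consensus on both strands. Of 32851 windows of this length, 2779 (8.46%) held a match. Of the 10 genes, 7 had a window, and 5 of these 7 held a match: Nfkbia, Tnfaip3, Rel, Bcl3 and Nfkb2. Tnfaip3 and Nfkb2 had more than 1 window, and a gene counted if any of its windows held a match. The share of genes is thus not on equal terms with the share of windows. The windows of Zfp36 and Tnf held none, which says only that these letters are not in those windows. The stretches with the matches are shown for 3 of the genes that were highest in the same 3 libraries (Nfkbia, Tnfaip3 and Rel) and for Bcl3, which was not; they are written 5′ to 3′ on the gene's strand, with matches in capitals.
Nfkbia, chr12:55492648-55492777, minus strand: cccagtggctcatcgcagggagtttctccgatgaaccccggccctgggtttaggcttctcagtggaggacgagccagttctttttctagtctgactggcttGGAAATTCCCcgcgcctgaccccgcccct
Tnfaip3, chr10:19015411-19015540, minus strand: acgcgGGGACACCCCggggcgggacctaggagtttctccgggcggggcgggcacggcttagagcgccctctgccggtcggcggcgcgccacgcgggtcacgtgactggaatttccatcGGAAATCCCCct
Rel, chr11:23770970-23771099, minus strand: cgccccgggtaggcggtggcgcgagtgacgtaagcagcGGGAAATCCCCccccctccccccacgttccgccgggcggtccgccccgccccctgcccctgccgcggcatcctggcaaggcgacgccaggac
Bcl3, chr7:19822736-19822765, minus strand: agtcggcggcagGGGAAGTCCCgctgcccg
The first 3 stretches are the 130 bases before the start. The match in Nfkbia begins 29 bases before the start, the matches in Tnfaip3 begin 125 and 12 bases before it, and those in Rel begin 92 and 91 bases before it and overlap each other. The match in Bcl3 begins at base 3 of the transcript. In Tnfaip3 the second RefSeq start, further into the gene, had no match in its window. A match is a description of the letters and was not tested as a site of binding.

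In TAM-KO, the mean levels of Tnfaip3, Nfkbia, Tnf, Nfkbiz, Rel and Zfp36 were from 1.87- to 3.34-fold lower in the fit, and Bcl3 was 1.67-fold higher. None of the 10 genes passed an adjusted p of 0.05 in edgeR's quasi-likelihood test, where 9.81% of all genes tested passed. The spread within the groups was wide, and several genes shared it. TAM-WT replicate 1 lay with the TAM-KO libraries for 6 of the genes, and TAM-KO replicate 1 was the TAM-KO library nearest to the other TAM-WT libraries. At an unadjusted p under 0.05, 6 of the 10 genes were lower in TAM-KO and 1 was higher, against 15.7% and 14.9% of all genes. With other tools, 5 of the 10 passed an adjusted p of 0.05 in DESeq2, against 18.2% of all genes, and 1 of the 10, Bcl3, passed in limma on log2(FPKM + 1), against 10.7%. In RNA of whole sorted populations, fewer cells of a kind and less RNA per cell cannot be told apart.

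**Figure D1:**
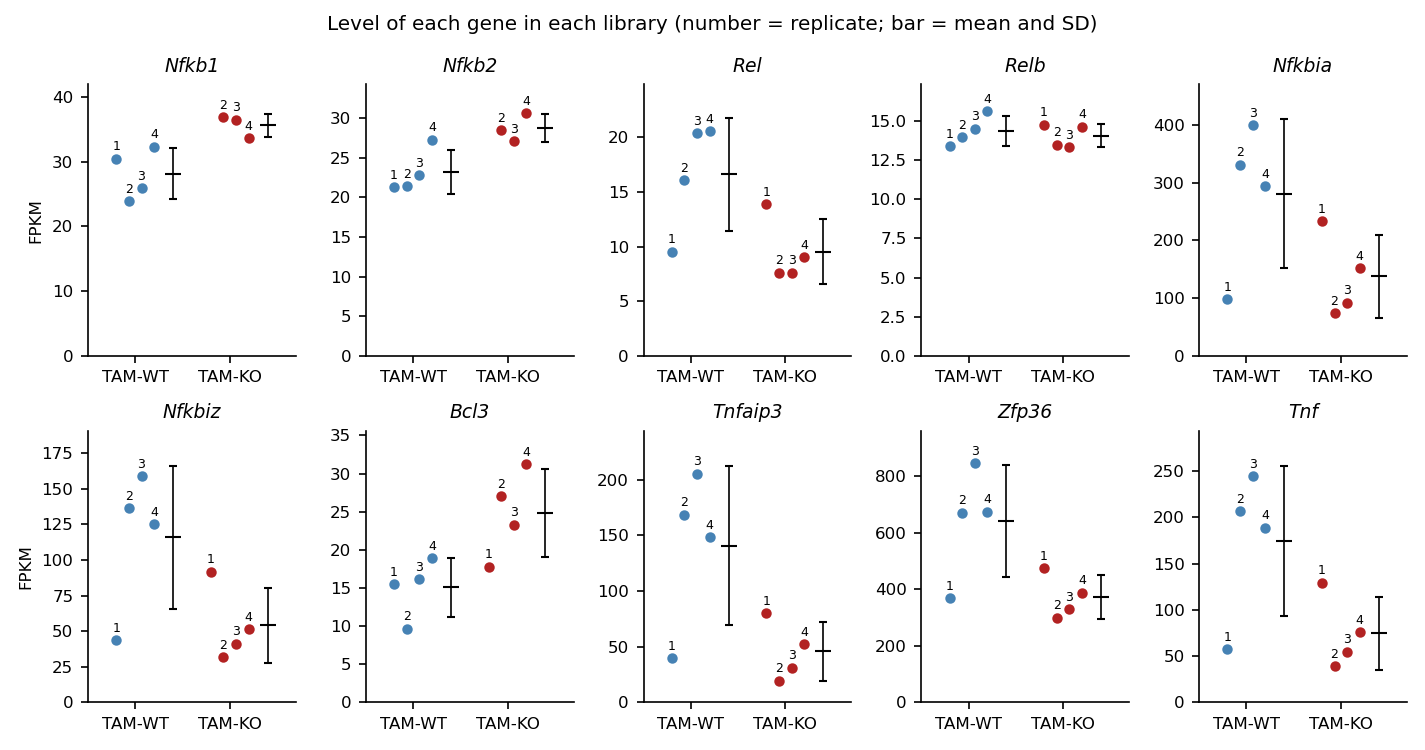
FPKM (vertical axis, linear and starting at 0) of each of the 10 genes in each library, with the replicate number over each point and the mean and SD beside each group (TAM-WT blue, TAM-KO red). Nfkbia, Nfkbiz, Tnfaip3, Zfp36, Tnf and Rel were highest in TAM-WT replicates 2 to 4, and TAM-WT replicate 1 lay within the range of TAM-KO.

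Nfkbia (NCBI Gene 18035, chr12:55489409-55492647) encodes IκBα, the inhibitor that is degraded on signaling and made anew from its κB-driven promoter; gene positions here and below are those of RefSeq on GRCm38.p6. Nfkbia had 98.6, 331, 399.5 and 294 FPKM in TAM-WT. In TAM-KO it had 233, 73.7, 92.0 and 152 FPKM. The ranges overlapped because TAM-WT replicate 1 was below TAM-KO replicates 1 and 4. The mean was 281 ± 129 (SD, n = 4) in TAM-WT and 138 ± 72.0 (SD, n = 4) in TAM-KO. The log2 fold change on the 7 libraries with counts in their own tables was −1.51 (95% interval −2.62 to −0.41; edgeR adjusted p = 0.0774). With TAM-KO replicate 1 added from the table of the series it was −1.16 (edgeR adjusted p = 0.136), since that library was the highest of its group. The counts behind these values ran from 1594 to 8945 per library, so that counting error was small beside the spread between libraries.

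Nfkbiz (NCBI Gene 80859, chr16:55811375-55838954) encodes IκBζ, a nuclear member of the family that is needed for the induction of a secondary set of inflammatory genes. Its FPKM values were 43.5, 137, 159 and 125 in TAM-WT. They were 91.9, 31.9, 41.1 and 51.2 in TAM-KO. As with Nfkbia, the overlap came from TAM-WT replicate 1, which was below TAM-KO replicates 1 and 4. The mean of 116 ± 50.3 (SD, n = 4) compared with 54.0 ± 26.4 (SD, n = 4), a log2 fold change of −1.23 (95% interval −2.17 to −0.28; edgeR adjusted p = 0.0850).

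Bcl3 (NCBI Gene 12051, chr7:19808462-19822824), the third member of the IκB family, acts in the nucleus with p50 or p52 homodimers and can raise or lower transcription. Its fitted difference had the opposite sign to those of the other IκB genes. Bcl3 was at 15.5, 9.65, 16.2 and 18.9 FPKM in TAM-WT. In TAM-KO it was at 17.8, 27.0, 23.3 and 31.3 FPKM. TAM-KO replicates 2 to 4 were above every TAM-WT library, and TAM-KO replicate 1, from the table of the series, was between TAM-WT replicates 3 and 4. The mean was 15.1 ± 3.91 (SD, n = 4) against 24.8 ± 5.72 (SD, n = 4). The log2 fold change was 0.74 on 7 libraries (95% interval 0.21 to 1.27; edgeR adjusted p = 0.0735) and 0.60 with the value from the table of the series (edgeR adjusted p = 0.128). Bcl3 had the fewest counts of the 10 genes in its lowest library, 262.

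Tnfaip3 (NCBI Gene 21929, chr10:19000910-19015410) encodes A20, an enzyme that edits ubiquitin chains and so ends signaling from TNF and Toll-like receptors. It had the widest range of the 10 genes. Tnfaip3 stood at 39.4, 169, 205 and 148 FPKM in TAM-WT, and at 80.2, 19.4, 31.2 and 52.3 FPKM in TAM-KO. The highest library had 10.6 times the level of the lowest. Within TAM-WT alone the highest was 5.21 times the lowest, and within TAM-KO 4.13 times, both wider than the 3.34-fold difference in the fit. The means were 140 ± 71.4 (SD, n = 4) and 45.8 ± 26.7 (SD, n = 4). The log2 fold change was −1.74 (95% interval −2.94 to −0.54; edgeR adjusted p = 0.0654).

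Zfp36 (NCBI Gene 22695, chr7:28376784-28379228) encodes tristetraprolin, which binds AU-rich elements of mRNAs, that of Tnf among them, and hastens their decay. It was the most abundant of the 10 transcripts in both groups. Its FPKM values were 369, 672, 846 and 676 in TAM-WT and 474, 300.4, 330 and 388 in TAM-KO. TAM-WT replicate 1 was between TAM-KO replicates 3 and 4. The mean was 641 ± 198 (SD, n = 4) against 373 ± 76.5 (SD, n = 4), and the log2 fold change of −0.90 came nearest to the threshold (95% interval −1.46 to −0.33; edgeR adjusted p = 0.0521).

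Tnf (NCBI Gene 21926, chr17:35199367-35202007), the cytokine, had 57.8, 207, 244 and 189 FPKM in TAM-WT. Its values in TAM-KO were 129, 39.2, 54.7 and 75.7 FPKM. TAM-WT replicate 1 again fell inside the range of TAM-KO. The means were 175 ± 81.2 (SD, n = 4) and 74.7 ± 39.4 (SD, n = 4), with a log2 fold change of −1.34 (95% interval −2.38 to −0.31; edgeR adjusted p = 0.0865). While Tnf itself varied 6.23-fold over the 8 libraries, the ratio of Nfkbia to Tnf within a library ran only from 1.56 to 2.01. The ratio of Zfp36 to Tnf was less even, from 3.25 to 7.66, being highest where Tnf was lowest.

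Among the subunits, Rel had the largest fitted difference, which did not pass the test; the subunits were not tested against each other. Rel (NCBI Gene 19696, chr11:23736847-23770969) encodes c-Rel, a subunit with a transactivation domain that drives cytokine genes in myeloid and lymphoid cells. Rel was at 9.53, 16.1, 20.4 and 20.6 FPKM in TAM-WT, and at 13.9, 7.62, 7.61 and 9.02 FPKM in TAM-KO. The ranges overlapped by TAM-WT replicate 1 and TAM-KO replicate 1, and would not without either one. The means were 16.6 ± 5.18 (SD, n = 4) and 9.54 ± 2.99 (SD, n = 4), and the log2 fold change was −0.93 (95% interval −1.55 to −0.30; edgeR adjusted p = 0.0623).

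Nfkb1 (NCBI Gene 18033, chr3:135584655-135691969) and Nfkb2 (NCBI Gene 18034, chr19:46300994-46312400) encode the precursors of p50 and p52, the subunits without a transactivation domain. Nfkb1 had 30.5, 23.9, 25.9 and 32.3 FPKM in TAM-WT, and 36.8, 36.5 and 33.6 FPKM in TAM-KO (replicates 2 to 4). The ranges of Nfkb1 did not overlap, as was so, in this direction, for 18.2% of the genes tested on 7 libraries. Its log2 fold change after TMM scaling was 0.23 (95% interval −0.04 to 0.50; edgeR adjusted p = 0.221). Nfkb2 had 21.3, 21.4, 22.8 and 27.2 FPKM in TAM-WT, and 28.4, 27.1 and 30.6 FPKM in the same 3 TAM-KO libraries, with a log2 fold change of 0.18 (95% interval −0.10 to 0.46; edgeR adjusted p = 0.363). Only TAM-WT replicate 4 of Nfkb2 reached into the range of TAM-KO.

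Relb (NCBI Gene 19698, chr7:19606217-19629438) encodes the partner of p52 in the slower, noncanonical branch. It was the steadiest of the 10 genes, at 13.4, 14.0, 14.5 and 15.6 FPKM in TAM-WT and at 14.7, 13.5, 13.3 and 14.6 FPKM in TAM-KO. The highest library had 1.17 times the level of the lowest. The log2 fold change of −0.14 had an interval from −0.35 to 0.06 (edgeR adjusted p = 0.324).

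Ordered by mean FPKM, which is per length of transcript, the genes in TAM-WT ran from Zfp36 (641) through Nfkbia (281), Tnf (175), Tnfaip3 (140) and Nfkbiz (116) to Nfkb1 (28.2), Nfkb2 (23.2), Rel (16.6), Bcl3 (15.1) and Relb (14.4). In this order the ranges over the 4 libraries of neighbors overlapped, except between Nfkbiz and Nfkb1 and between Nfkb2 and Rel. In TAM-KO the order was Zfp36 (373), Nfkbia (138), Tnf (74.7), Nfkbiz (54.0), Tnfaip3 (45.8), Nfkb1 (35.6), Nfkb2 (28.7), Bcl3 (24.8), Relb (14.0) and Rel (9.54). There the neighbors whose ranges did not overlap were Zfp36 and Nfkbia, Nfkb1 and Nfkb2, and Bcl3 and Relb. Rel and Bcl3 traded places between the groups: the mean of Rel was above that of Bcl3 in TAM-WT and was the lowest of the 10 in TAM-KO.

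The libraries fell into 1 order for several of these genes. From high to low, Nfkbia, Nfkbiz, Tnfaip3 and Tnf each ranked them as TAM-WT replicates 3, 2 and 4, TAM-KO replicates 1 and 4, TAM-WT replicate 1, and TAM-KO replicates 3 and 2. This order was picked out after the values were seen. Of 10093 genes tested with a value in all 8 libraries, 13 (0.129%) had this very order. A gene missing from the table of TAM-KO replicate 1, such as Nfkbia, has 8 values only if the series table of differentially expressed genes lists it. Sets that draw much on that table are thus not on equal terms with all genes. A looser form, with TAM-WT replicates 2, 3 and 4 as the 3 highest libraries, held for 6 of the 8 genes with 8 values (those 4, Zfp36 and Rel) and for 3.39% of all genes. In all 6, TAM-KO replicate 1 came next, as in 1.34% of all genes. Relb and Bcl3 did not have it, and Nfkb1 and Nfkb2, with 7 values, were higher in TAM-KO replicates 2 to 4 than in TAM-WT replicates 2 and 3.

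**Figure D2:**
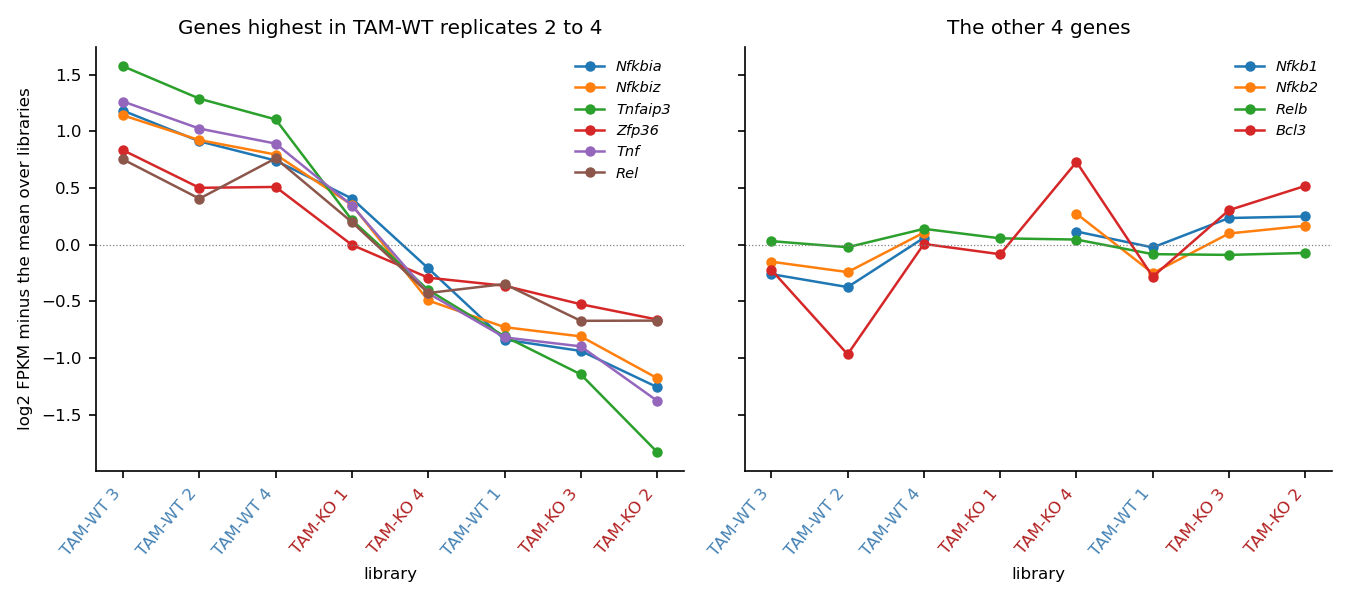
Level of each gene in each library as log2 FPKM minus the gene's mean over its libraries (vertical axis), with the libraries (horizontal axis; TAM-WT labels blue, TAM-KO labels red) in the order that Nfkbia, Nfkbiz, Tnfaip3 and Tnf share. On the left Nfkbia, Nfkbiz, Tnfaip3 and Tnf descend throughout, with TAM-WT replicate 1 between TAM-KO replicates 4 and 3. Zfp36 and Rel descend less evenly: Zfp36 was higher in TAM-WT replicate 4 than in 2. Rel was highest in TAM-WT replicate 4 and higher in TAM-WT replicate 1 than in TAM-KO replicate 4. On the right Nfkb1, Nfkb2, Relb and Bcl3 do not descend, and the gap at TAM-KO 1 marks the 2 genes with no value there.

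The edgeR calls for the 10 genes changed most when TAM-WT replicate 1 was left out. For 6 of the genes it was the TAM-WT library that lay within TAM-KO, so leaving it out must widen those differences. The fit without it is thus no independent support for a difference. Colec11 did not set this library apart: it had 1 count here, 1 in TAM-WT replicate 4 and 1 in every TAM-KO library. TAM-WT replicate 2 had 4 counts and TAM-WT replicate 3 had 0, and such low counts cannot tell the genotypes apart. Without TAM-WT replicate 1, 6 of the 10 genes passed an adjusted p of 0.05 in edgeR, against 9.31% of all genes. All 6 were lower in TAM-KO. They were Tnfaip3 (log2 fold change −2.05, adjusted p = 0.0227), Nfkbia (−1.80, 0.0186), Tnf (−1.64, 0.0261), Nfkbiz (−1.50, 0.0255), Rel (−1.13, 0.0213) and Zfp36 (−1.10, 0.0137). Without TAM-WT replicate 2, Rel, Zfp36 and Bcl3 passed (3 of 10, against 22.2% of all genes). Without any 1 of the other 6 libraries, 0 of the 10 passed in edgeR, where from 0.617% to 9.07% of all genes did. The direction of every one of the 10 genes was the same in all 17 distinct alternative fits.

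**Figure D3:**
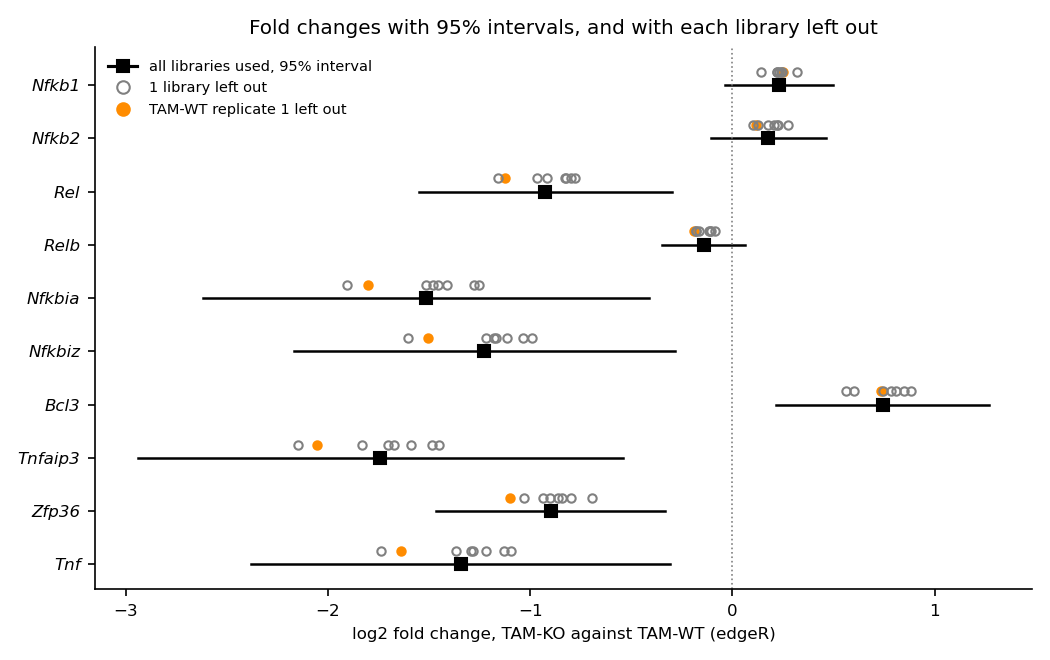
Log2 fold change of TAM-KO against TAM-WT in edgeR (horizontal axis) for the 10 genes, with squares for the fit on all libraries used and lines for its 95% interval; open circles show the fit with 1 library left out and orange circles the fit without TAM-WT replicate 1. Leaving out 1 library moved Tnfaip3 between −2.15 and −1.45 and turned no gene to the other side of 0.

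Upstream of NF-κB, Malt1 was the single gene of the receptor and adaptor lists to pass the test in edgeR, where 9.81% of all genes passed. Of 11 genes tested among 12 for TNF-family ligands, receptors and the shedding of TNF, 0 passed in edgeR, DESeq2 or limma, with 2 at an unadjusted p under 0.05 (30.7% of all genes) and a median log2 fold change of 0.02. Tnfrsf1a, the widely expressed TNF receptor, had from 99.5 to 114 FPKM in TAM-WT and from 117 to 133 in TAM-KO, so that the groups did not overlap in FPKM, as was so in this direction for 12.3% of the genes tested on 8 libraries; with TMM scaling its log2 fold change was 0.06 (SE 0.09). Tnfrsf1b, the second TNF receptor, had a log2 fold change of −0.12 (SE 0.20), and Adam17, which cuts TNF from the membrane, 0.09 (SE 0.10). The 2 genes of smallest p were Ltb, which encodes lymphotoxin β (log2 fold change 1.91, edgeR adjusted p = 0.106), and Rhbdf1, which encodes the iRhom1 partner of Adam17 (0.41, adjusted p = 0.137). Ltb is a gene of lymphocytes, and its FPKM was 2.62 in TAM-WT replicate 1, from 0.14 to 0.56 in the other TAM-WT libraries and from 2.24 to 5.25 in TAM-KO.

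Of 32 adaptor and kinase genes, all tested, 1 passed, against 5.24% of all genes in its direction, lower in TAM-KO: Malt1, the paracaspase that links antigen and C-type lectin receptors to NF-κB. Malt1 had 12.2, 15.9, 21.5 and 21.6 FPKM in TAM-WT and 8.76, 8.23, 9.95 and 7.25 FPKM in TAM-KO. The groups did not overlap, TAM-WT replicate 1 included, and Malt1 fell by 1.17 on the log2 scale (SE 0.20, edgeR adjusted p = 0.0168). In the same direction 4.8% of the genes tested on 8 libraries did not overlap. In edgeR 0 of the 32 passed when TAM-KO replicate 2 or 3 was left out (0.617% of all genes in each), and 8 passed when TAM-WT replicate 2 was (22.2% of all genes). The median of the 32 genes was −0.12. Rela, which encodes p65, the chief transactivating subunit, had from 38.9 to 45.1 FPKM in TAM-WT and from 39.6 to 45.5 in TAM-KO, with −0.12 (SE 0.10) as its log2 fold change. The IκB kinase genes had log2 fold changes of −0.13 (Chuk, SE 0.07), 0.06 (Ikbkb, SE 0.08) and −0.05 (Ikbkg, SE 0.08), none past the test. The ratio of Nfkbia to Rela ran from 1.72 to 8.86 over the libraries, being 2.37 in TAM-WT replicate 1 and from 6.53 to 8.86 in the other TAM-WT libraries.

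Other inhibitors of the pathway passed in both directions. Of 25 tested, 2 were higher in TAM-KO and 3 lower (4.58% and 5.24% of all genes); the split was 5 higher and 2 lower in limma on log2(FPKM + 1) and 5 and 3 with total-count scaling, and the median log2 fold change was −0.09. Nlrc5, a regulator of MHC class I genes that is also described as an inhibitor of the IκB kinases, rose by 1.37 (SE 0.29, edgeR adjusted p = 0.0265). Sigirr, an inhibitory receptor of the IL-1 receptor family, rose by 1.03 (SE 0.21, edgeR adjusted p = 0.0253) from a low level of at most 3.86 FPKM; it has fewer counts than the rule for named genes asks and was added after its values were seen. Those that fell were Zfp36l1, a relative of Zfp36 (−0.66, edgeR adjusted p = 0.0436), Tollip, an adaptor that restrains IL-1 and Toll-like receptor signaling (−0.53, adjusted p = 0.0405), and Otulin, which removes linear ubiquitin chains (−0.36, adjusted p = 0.0385). Leaving out TAM-WT replicate 3 or TAM-KO replicate 2 or 3 left 0 passing genes of this list in edgeR (1.21%, 0.617% and 0.617% of all genes). The lower calls were also lost when TAM-KO replicate 1 (3 higher and 0 lower) or TAM-WT replicate 4 (4 higher and 0 lower) was dropped, where 5.47% and 3.34% of all genes passed, and 3 higher and 6 lower passed when TAM-WT replicate 2 was (22.2%). Of the 19 genes of this list with 8 values, 4 had TAM-WT replicates 2, 3 and 4 as the highest libraries, against 3.39% of all genes. Nfkbid, the remaining nuclear IκB gene and again picked after its values were seen, had the very order of libraries of Nfkbia, with a log2 fold change of −0.98 (edgeR adjusted p = 0.0603).

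Of the genes known as targets of NF-κB, more passed the test as lower in TAM-KO than as higher. Of 38 tested among 40, 6 were lower and 1 higher past an adjusted p of 0.05 in edgeR, against 5.24% and 4.58% of all genes, and the median log2 fold change was −0.67, against 0.00 for all genes. Of the 38, 19 were fitted without TAM-KO replicate 1. With that library filled in from the series table, 5 were lower and 1 higher (5.06% and 3.89% of all genes). Il1a, which encodes IL-1α, fell by 3.05 (SE 0.70, edgeR adjusted p = 0.0362). The chemokine genes Ccl4 (−1.22, edgeR adjusted p = 0.0357) and Ccl3 (−1.10, adjusted p = 0.0488), the activation marker Cd83 (−1.13, adjusted p = 0.0332) and the urokinase receptor gene Plaur (−0.94, adjusted p = 0.0268) fell as well. Il12b, added after its values were seen because it is a low gene of at most 1.49 FPKM, fell by 1.77 (edgeR adjusted p = 0.0329). The gene that rose was Cxcl10 (0.92, edgeR adjusted p = 0.0324), a chemokine gene that responds to interferon as well. TAM-WT replicates 2, 3 and 4 were the highest libraries for 14 of the 28 target genes with 8 values, with TAM-KO replicate 1 next in 13 of them, against 3.39% and 1.34% of all genes. The count was 0 of 6 for the receptor genes and 1 of 21 for the adaptors and kinases, near the share in all genes. The lists were not tested against each other. Some of the 28 target genes have a value for TAM-KO replicate 1 only from the series table of differentially expressed genes. All genes draw on that table less, so the shares are not on equal terms. In 2 of the 8 fits that leave out a library (those without TAM-KO replicate 2 or 3), 0 target genes passed in edgeR (0.617% of all genes in each), while 1 passed without TAM-WT replicate 3 (1.21%), 2 without TAM-WT replicate 4 (3.34%), 12 without TAM-WT replicate 2 (22.2%) and 18 without TAM-WT replicate 1 (9.31%).

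**Figure D4:**
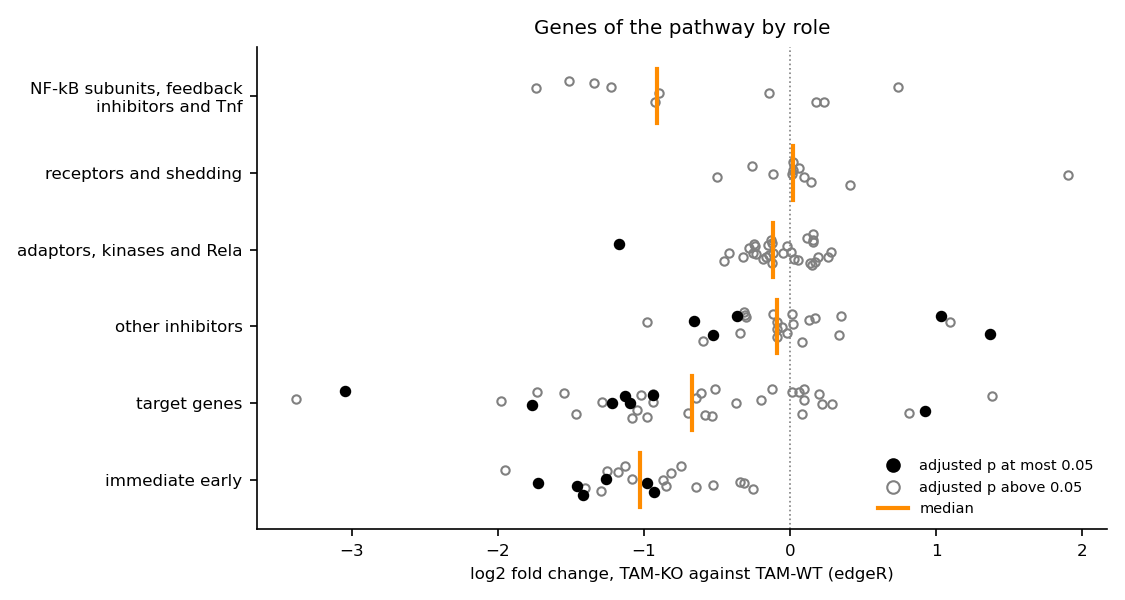
Log2 fold change of TAM-KO against TAM-WT in edgeR (horizontal axis) for each tested gene of the lists by role, with filled points for an adjusted p of at most 0.05 and orange bars for the median of a list; vertical scatter within a list has no meaning. The receptors (median 0.02) and the adaptors and kinases (−0.12) lie near 0, while the target genes (−0.67) and the immediate early genes (−1.03) lie to the left.

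Immediate early genes, which are induced within minutes of a stimulus without new protein synthesis and also when tissue is taken apart, had an order of libraries much like that of the 6 genes above. All 22 tested had a fitted difference below 0, of which 6 passed an adjusted p of 0.05 in edgeR, against 5.24% of all genes in this direction, and 16 did not, with a median log2 fold change of −1.03. Of the 22, 19 were fitted without TAM-KO replicate 1. With that library filled in from the series table, Egr2 and Klf4 of the 6 still passed in edgeR (adjusted p = 0.0356 and 0.0351). Klf6 (0.0521), Atf3 (0.0580), Egr3 (0.0705) and Btg2 (0.0802) then did not. These genes were named after their values were seen. Their summed FPKM, over the 18 with 8 values, was 2161, 3786, 5072 and 3997 in TAM-WT and 2787, 1574, 1803 and 2375 in TAM-KO. That is the order of libraries of Nfkbia but for TAM-WT replicates 2 and 4, which trade places. Of these 18 genes, 15 had TAM-WT replicates 2, 3 and 4 as the highest libraries, against 3.39% of all genes. Most of the 18 have a value for TAM-KO replicate 1 only from the series table of differentially expressed genes. All genes draw on that table less, so the 2 shares are not on equal terms. Fos had from 392 to 710 FPKM in TAM-WT and from 318 to 452 in TAM-KO, and Dusp1 from 256 to 715 and from 171 to 389. Their part in the values of the 10 genes was not tested.

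Markers of other cells also differed between the libraries. The summed FPKM of 14 T cell and NK cell genes was 38.4, 1.95, 3.30 and 4.59 in TAM-WT and 67.6, 134, 111 and 45.0 in TAM-KO. TAM-WT replicate 1 was thus high for these genes and near the lowest TAM-KO library. Nkg7, the most abundant of the list, had 5.82 FPKM in TAM-WT replicate 1, from 0.10 to 0.21 in the other TAM-WT libraries and from 9.94 to 27.7 in TAM-KO, and Gzmb had 6.55, from 0.23 to 0.47 and from 5.14 to 24.0. Of the 13 genes of the list tested, 12 were higher in TAM-KO in the fit and 2 passed, against 4.58% of all genes in this direction. At an unadjusted p under 0.05 in edgeR, 12 were higher, against 14.9% of all genes. The sum of 7 neutrophil genes was from 21.8 to 32.7 in TAM-WT, 198 in TAM-KO replicate 1 and from 49.1 to 56.3 in the other TAM-KO libraries. Csf3r and S100a8 led the list by their mean over the libraries other than TAM-KO replicate 1. In TAM-KO replicate 1 itself S100a9, named after its values were seen, was the highest at 80.0 FPKM. Ngp, of neutrophil granules, was listed at 0 in the 7 libraries with a value. The sum of 7 melanoma genes, led by Pmel and Dct, was from 1958 to 4382 in TAM-WT and from 3817 to 5057 in TAM-KO, although the sort was for CD45+F4/80+ cells. The part of these cells in the values of the 10 genes was not tested.

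**Figure D5:**
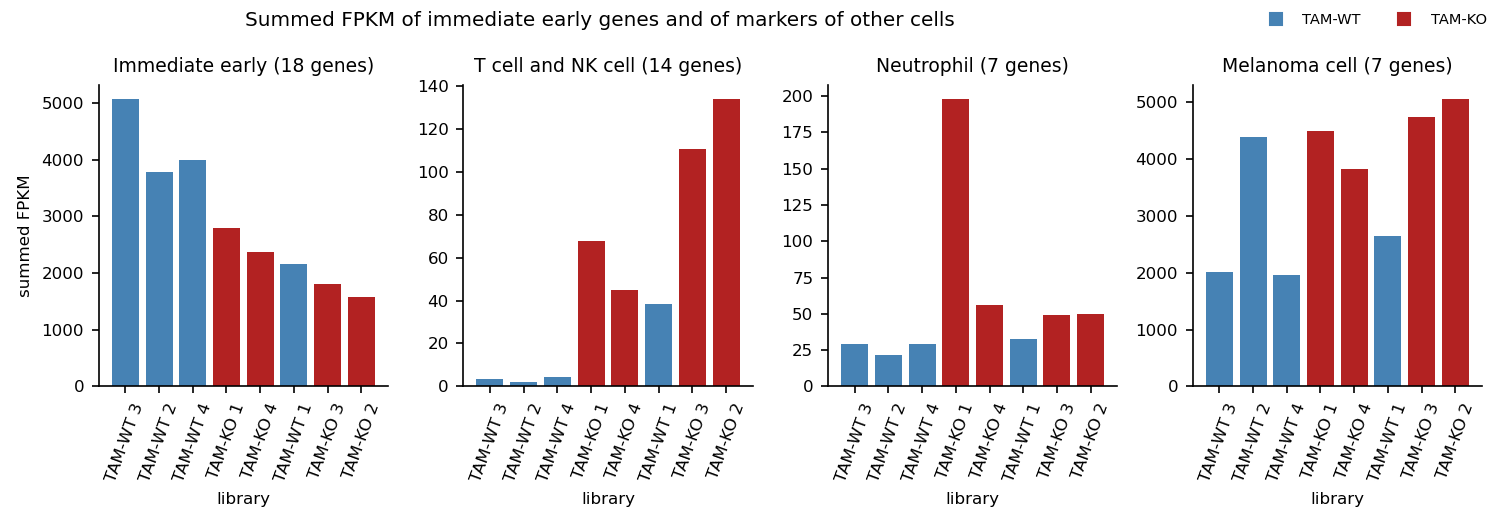
Summed FPKM (vertical axis, from 0, a scale for each panel) of immediate early genes and of T cell and NK cell, neutrophil and melanoma cell markers in each library (horizontal axis; TAM-WT blue, TAM-KO red), in the library order of the profile plot. Immediate early genes follow that order nearly, T cell and NK cell markers are at most 4.59 in TAM-WT replicates 2 to 4 and at least 38.4 elsewhere, and the neutrophil sum stands out at 198 in TAM-KO replicate 1.

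The other lists were less uneven. The 10 macrophage markers, led by Lyz2 and C1qa, summed to 14644 to 17075 FPKM in TAM-WT and to 12077 to 14840 in the 3 TAM-KO libraries with values. In edgeR 0 of the 10 passed, with 4 at an unadjusted p under 0.05, against 9.81% and 30.7% of all genes. Of 7 monocyte genes, 3 rose and 1 fell past the test, against 4.58% and 5.24% of all genes. Plac8 rose by 1.41 (edgeR adjusted p = 0.0123), and F13a1, a transglutaminase gene of monocytes and resident macrophages, fell by 1.48 (adjusted p = 0.0139). The sums of the remaining lists were small. They were from 14.9 to 21.05 FPKM for 6 B cell genes (led by Cd22 and Cd79b), from 9.01 to 22.2 for 9 dendritic cell genes (Fscn1 and Ccr7), from 2.37 to 7.04 for 7 fibroblast genes (Col1a1 and Col1a2) and from 8.24 to 16.7 for 7 endothelial cell genes (Egfl7 and Pecam1), over the 7 libraries other than TAM-KO replicate 1. Of the genes tested, 0 of 3 B cell, 1 of 9 dendritic cell (Xcr1, chosen after its values were seen), 0 of 5 fibroblast and 0 of 5 endothelial cell genes passed in edgeR, with 1 of each list at an unadjusted p under 0.05. The shares over all genes were 9.81% and 30.7%. In the neutrophil and melanoma lists S100a8 (1 of 5 tested) and Sox10 (1 of 7 tested, likewise chosen after its values were seen) passed, both higher in TAM-KO, as did 4.58% of all genes.

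By likeness to the mean standardized profile of the 10 genes over the 7 libraries that hold every gene, the nearest other genes were Zswim4, Pcf11, Slc25a30, Smcr8 and Sdc4. Their mean absolute difference from the profile, in SD of log2 CPM, ran from 0.268 to 0.278, where the median of 10364 genes was 0.891. Among the 10 genes themselves, Relb (0.332) and the 6 genes highest in TAM-WT replicates 2 to 4 (0.399 to 0.445) were near the profile. Nfkb2, Nfkb1 and Bcl3 (0.768 to 1.01) were not. The profile is the mean of these same 10 genes, 6 of them alike, so these distances follow in part from how it was made. Sdc4, the most abundant of the 5, had 75.5, 90.1, 106 and 101 FPKM in TAM-WT and 87.8, 63.7, 81.0 and 93.0 FPKM in TAM-KO, with TAM-WT replicate 3 the highest and TAM-KO replicate 2 the lowest, as for Nfkbia, over a narrower range. None of the 5 passed in edgeR.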

How the data were processed

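The 4 TAM-WT and 4 TAM-KO libraries of sorted TAMs were sequenced on BGISEQ-500. Groups and replicate numbers came from the deposited labels. Per the submitters' processing notes the build was GRCm38.p6 and the tools HISAT2 2.0.4, Bowtie2 2.2.5 and RSEM 1.2.12. The authors deposited expected counts, estimated by RSEM per gene without normalization, and FPKM values, relative to gene length and to mapped reads. The authors' fold changes and p-values in the deposited table of the series were not used.

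The table of TAM-KO replicate 1 lacks 5311 of 21051 genes; 1 line that mixes 2 genes and 629 stray values were not used. Where the table of the series lists a gene, its values equal those of the sample tables (3996 genes in each of 7 libraries and 2808 in TAM-KO replicate 1, within 0.011).

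Expected counts, rounded, entered edgeR 4.0.16 under R 4.3.3 (TMM, filterByExpr, glmQLFit and glmQLFTest), on 8 libraries where all had a value and on 7 otherwise, with Benjamini-Hochberg adjustment over all 12412 genes. This departs from a single fit on 8 libraries because of the missing genes. Fits with DESeq2 1.42.0 and limma 3.58.1, other filters and scalings, a replicate block and each library left out were alternatives. On simulated counts of 9345 genes, this comparison recovered 91 of 100 genes changed 2-fold and 99 of 100 changed 4-fold, with 13 unchanged genes called. The changed genes were drawn at random, varied independently of each other and had values in all 8 libraries. Several of the 10 NF-κB genes shared a wide spread, and 4 of the 10 were fitted on 7 libraries. These recovery rates therefore do not carry over to them. No pair of replicates was as alike as sampling noise would make it: chi-square over degrees of freedom was 6.16 to 30.0.

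The 10 genes and all lists were chosen with earlier results of these data known. Named besides the 10 are Colec11, 7 core pathway genes, up to 5 passing genes per direction of each pathway list with a mean CPM of at least 5 (or the 2 of smallest p), the 2 most abundant genes of each marker list and those at 0 throughout, and the 5 genes nearest to the mean profile.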

Additional observations from a re-analysis of the deposited data

Results flagged for a closer look

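In groups of 4 libraries, 132 sets of values were checked for a library that stood apart from the other 3 by Dixon's ratio, and 10 did; chance gives about 1 in 20, or 6.6 of 132. None of the 10 NF-κB genes was among them. TAM-WT replicate 1 stood apart in Ltb (2.62 FPKM against 0.14 to 0.56), Nkg7 (5.82 against 0.10 to 0.21), Gzmb (6.55 against 0.23 to 0.47) and the sum of T cell and NK cell genes (38.4 FPKM against 1.95 to 4.59). TAM-KO replicate 1 stood apart in S100a8 (73.5 FPKM against 9.13 to 15.8), in Pcf11 (12.7 FPKM against 11.1 to 11.3) and in the sum of neutrophil genes (198 against 49.1 to 56.3). TAM-WT replicate 3 stood apart in Plaur (152 FPKM against 86.4 to 92.3) and Zfp36l1 (101 FPKM against 77.8 to 79.8). The last is the sum of the other inhibitors in TAM-KO replicate 3 (385 FPKM against 375.0 to 375.2).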

How the results depend on the processing

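Under 17 distinct alternative fits the 10 genes gave 170 values, all of the main direction; 151 stayed on the same side of the threshold and 19 crossed it. The fit of all genes on 7 libraries is the one without TAM-KO replicate 1 and was counted once; for Nfkb1, Nfkb2, Nfkbia and Bcl3 it has the libraries of the main fit. Of the 10 genes, 0 passed with the main settings, as with DESeq2 size factors, at least 10 counts in every sample, TAM-KO replicate 1 filled in, all genes on 7 libraries, an adjusted p of 0.01 or an added fold change of 2. DESeq2 passed 5 (Rel, Nfkbia, Bcl3, Tnfaip3 and Zfp36), limma on log2(FPKM + 1) and on log2(FPKM + 0.1) 1 each (Bcl3), no filter on low counts 1 (Zfp36) and scaling to total counts, added after seeing the data, 1 (Bcl3). The cause was not tested. With each library left out in turn, from 0 to 6 of the 10 genes passed, from 0 to 1 of the receptor genes, 0 to 8 of the adaptors and kinases, 0 to 9 of the other inhibitors, 0 to 18 of the target genes and 77 to 2755 of all genes. DESeq2 passed 3 adaptors and kinases, 12 other inhibitors, 18 target genes and 2253 of all genes, where the main fit passed 1, 5, 7 and 1218. Both limma fits passed 3 adaptors and kinases, and total-count scaling 2 of them and 8 other inhibitors. On the 7 libraries without TAM-KO replicate 1, 3 other inhibitors and 682 genes passed.

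The labels do not say whether same-numbered samples were paired. Deviations of same-numbered libraries correlated at −0.43, 0.04, −0.29 and 0.30, and not every library correlated best with its own number. Such values cannot show whether the mice were paired in litter or handling. With the replicate block, 1 of the 10 genes passed (Nfkbia), 1 receptor gene and 3 adaptors and kinases. Of all passing genes, 46.6% were higher in TAM-KO with TMM, 64.4% with total-count scaling and 69.2% in limma on log2(FPKM + 1); limma on log2(FPKM + 0.1) moved the median log2 fold change of all genes to 0.11.

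Among the other named genes, only some with values near 0 changed sign. In limma with pseudocounts of 1 and 0.1 these were Ikbkg (0.053 and 0.060), Tnfrsf1b (0.028 and 0.029) and Col1a2 (0.075 and 0.20). Egfl7 was −0.11 without TAM-KO replicate 1, and Col1a1 was −0.020 with the replicate block. With libraries left out in turn, Ikbkg ran from −0.10 to 0.0096, Fscn1 from −0.016 to 0.55, Col1a1 from −0.34 to 0.38, Col1a2 from −0.26 to 0.40 and Egfl7 from −0.12 to 0.38. Counts of the 10 genes were at least 262 in every library. With 1 library per mouse, the spread between mice and that from the handling of the samples cannot be told apart.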
